A study of Homo sapiens with 6 samples.

Results

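The genes described here make, sense and move sterols or make fatty acids. They were measured in MM1.S, an established line of human myeloma cells, and were read on 6 one-colour Affymetrix arrays. The set was a list of 36 gene symbols taken from the cholesterol and fatty acid pathways, and a member was measured where the array annotation paired a probe set with its symbol alone. Of the 36 members, 31 had such a probe set, 73 probe sets in all, among 19775 genes measured in the same way. By role, 18 members are sterol enzymes, 8 are genes of sterol sensing, transport and export, and 10 are fatty acid enzymes. For short, these 8 genes are called regulators below, though STARD4 is a carrier and ABCA1 and ABCG1 are exporters. The figures title this class uptake and regulators. CYP51A1, ELOVL1 and FADS1 were paired only with probe sets that carry a further gene symbol, and FDFT1 and ACSL3 with none in the annotation used, so these 5 members were not analysed here.

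In the beta-catenin knockdown group, cells carried the lentiviral vector that the labels call pKLO with an shRNA against beta-catenin. In the control group they carried pKLO GFP with a control shRNA. All cells were MM1.S, all were infected with lentivirus and sorted for GFP, and each group was grown as 3 cultures with 1 array each. The labels describe cultures of sorted cells, not separate infections, and do not give the number of hairpins, so p-values measure the spread between these cultures, and off-target effects were not analysed here. Some label fields speak of embryos and go against the cell line named elsewhere.

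Cells build cholesterol from acetyl-CoA through mevalonate, squalene and lanosterol, and build fatty acids from the same acetyl-CoA through malonyl-CoA. The enzymes of both routes are switched on by SREBP transcription factors. When sterols are scarce, the escort protein SCAP carries SREBP from the endoplasmic reticulum to the Golgi, where proteases release its active part; when sterols are plentiful, INSIG proteins hold SCAP back. Plasma cells, from which myeloma arises, keep a large endoplasmic reticulum for antibody secretion, and its membranes are made of these lipids.

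Many SREBP-responsive promoters hold a sterol regulatory element beside CCAAT boxes, which bind NF-Y, and GC boxes, which bind Sp1. The 250 bases before the gene start were searched for these letters in a RefSeq promoter table of build GRCh38.p14, which matched 31 of the 36 members. The inverted CCAAT box, ATTGG on either strand, was present for 22 of these 31 members (71.0%), among them 13 of 15 sterol enzymes, 6 of 9 fatty acid enzymes and 3 of 7 regulators. It was present in 32.0% of all 35116 promoters of the table and for 40.2% of 15843 protein-coding genes. The following 3 promoters, chosen after the values were seen, are shown because each belongs to the member with the largest fall in its class among those that hold the box; capitals mark ATTGG or its reverse complement.
HMGCS1, chr5:43313413-43313662, minus strand: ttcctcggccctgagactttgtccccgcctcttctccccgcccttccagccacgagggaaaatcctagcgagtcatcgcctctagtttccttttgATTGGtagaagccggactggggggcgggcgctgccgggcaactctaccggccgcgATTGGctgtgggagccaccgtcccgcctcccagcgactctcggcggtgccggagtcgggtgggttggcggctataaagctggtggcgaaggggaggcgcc
INSIG1, chr7:155297628-155297877, plus strand: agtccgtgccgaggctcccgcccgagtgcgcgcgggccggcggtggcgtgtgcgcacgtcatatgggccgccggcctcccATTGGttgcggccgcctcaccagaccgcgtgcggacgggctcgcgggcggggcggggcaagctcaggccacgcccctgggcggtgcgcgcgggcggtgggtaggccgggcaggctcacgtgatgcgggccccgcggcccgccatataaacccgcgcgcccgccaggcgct
ACLY, chr17:41919023-41919272, minus strand: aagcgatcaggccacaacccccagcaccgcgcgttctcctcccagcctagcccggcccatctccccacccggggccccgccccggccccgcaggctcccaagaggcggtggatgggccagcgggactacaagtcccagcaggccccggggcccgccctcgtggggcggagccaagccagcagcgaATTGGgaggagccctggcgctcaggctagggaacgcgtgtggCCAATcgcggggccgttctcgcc

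The sterol element was searched as CACCCCAC and, shifted by 1 base, as TCACCCCA, on both strands; the letters of the forms overlap. One form or the other was found for 3 of 31 members (9.68%), which were MVK, SREBF2 and ABCA1, against 3.32% of all promoters and 4.54% of protein-coding genes. The promoters of MVK and SREBF2, chosen after the values were seen, are shown because both members rose. Capitals mark the element, which begins 195 bases before the start of MVK and 133 bases before that of SREBF2.
MVK, chr12:109573544-109573793, plus strand: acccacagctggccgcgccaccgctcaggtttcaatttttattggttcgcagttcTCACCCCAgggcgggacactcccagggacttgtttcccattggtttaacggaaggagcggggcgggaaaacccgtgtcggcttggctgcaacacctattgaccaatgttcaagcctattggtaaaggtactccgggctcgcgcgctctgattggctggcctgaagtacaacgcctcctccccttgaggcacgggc
SREBF2, chr22:41832855-41833104, plus strand: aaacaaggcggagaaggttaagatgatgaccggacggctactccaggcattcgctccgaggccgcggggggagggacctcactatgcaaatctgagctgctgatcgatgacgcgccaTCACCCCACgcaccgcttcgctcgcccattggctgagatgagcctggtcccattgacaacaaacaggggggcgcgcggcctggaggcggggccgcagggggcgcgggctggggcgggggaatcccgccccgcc

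The GC box, GGGCGG, was present for 29 of 31 members (93.5%), against 42.6% of all promoters and 62.1% of protein-coding genes. The letters TGATGCAA, the core of a site bound by CHOP with an ATF partner, were in 0 of 31 member windows and in 0.772% of all promoters. A match is a description of these letters and shows no binding. Only exact letters in these windows were searched, so a missing match does not show that an element is absent.

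Each probe set had 1 deposited log2 value per array. No value lay below 4, the log2 of 16, so the values were read as log2(signal + 16), and a fold on this scale understates the change of dim genes. The number of arrays limits the precision. Array medians were 5.50 to 5.54 in the knockdown and 5.44 to 5.50 in the control cultures. A gene was read by its brightest probe set, was tested if that probe set's mean over the 6 arrays was at or above 5.49, and was called if its adjusted p by limma was below 0.05. Of the 7 plasma cell markers, 7 passed that filter, with 3 called higher, 3 lower and changes from −0.32 to 0.80, while 0 of 2 B cell markers measured and 0 of 3 markers of fat or liver did. Of 6 T cell and myeloid markers, 3 passed, and CSF1R was called higher by 0.31 (limma, adjusted p = 0.0332). That call was lost without any 1 of control replicates 1 and 2 or knockdown replicates 1 and 3 (limma, adjusted p = 0.0522 to 0.162). It was also lost by limma after quantile normalization (adjusted p = 0.0703) or centring (0.0746), with a replicate block (0.0553), and against a 1.2-fold change. The mean of the 6 ribosomal RNA control probe sets was 9.75, 9.81 and 10.22 in the knockdown and 8.60, 9.63 and 8.84 in the control arrays, so the groups stood apart. Its part in the results below was not tested. In the ACTB controls, a sign of RNA quality, the 3′ probe set exceeded the 5′ one by 0.64, 0.56 and 0.54 in the knockdown and 0.89, 0.53 and 0.59 in the control arrays, and the groups overlapped.

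CTNNB1, the targeted gene, read 6.39, 6.53 and 6.34 in the knockdown arrays, against 7.82, 7.67 and 7.75 in the control arrays. Its change was −1.33 (SE 0.10; limma, adjusted p = 9.04e-12). A dimmer CTNNB1 probe set was called higher, by 0.33 (limma over all probe sets, adjusted p = 0.0390), with the groups apart. The dimmest differed by −0.07 and was not called, so the fall was seen by 1 of 3 probe sets. The average over the 3 changed by −0.36.

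Sterol enzymes fell more often than they rose, and fatty acid enzymes fell or were not called. Of the genes of sensing, transport and export, INSIG1, SCAP and SREBF2 were called. Of 29 members above the filter, 15 were called lower and 4 higher, where 22.0% of all 12939 genes tested were called lower and 25.3% higher. Among sterol enzymes 9 of 14 tested were lower and 3 higher. Among genes of sensing, transport and export 2 of 8 were lower and 1 higher. With 8 genes, these counts beside the shares over all genes are no result about the class. Among fatty acid enzymes 4 of 7 were lower and 0 higher. The median change was −0.66 in sterol enzymes, 0.06 in regulators and −0.40 in fatty acid enzymes, and 0.05 over all genes tested. With the dim sterol enzymes MVD and SQLE included, the sterol median was −0.45. Differences between the classes were not tested. Members and classes were chosen with earlier results of these data known, so the counts beside all genes are description only.

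Larger changes were counted in the same way. A fall of at least 0.5 was called for 12 of 29 members, against 11.8% of all genes tested, and a rise of at least 0.5 for 3, against 11.4%. The knockdown and control arrays did not overlap for 20 of 29 members, against 54.4% of all genes tested. Set against each member's own control mean, the median sterol enzyme lay at −0.66, −0.58 and −0.70 on the 3 knockdown arrays and at 0.14, −0.09 and −0.04 on the control arrays. The median fatty acid enzyme lay at −0.44, −0.32 and −0.46 on the knockdown arrays and at 0.05, −0.06 and 0.05 on the control arrays. In both classes each knockdown array lay below each control array. These medians come from the same arrays as the calls. Over all genes tested the median lay at 0.06, 0.04 and 0.03 on the knockdown arrays and at 0.04, −0.07 and 0.03 on the control arrays. The median regulator lay at 0.02, 0.02 and 0.15 on the knockdown arrays and at 0.02, −0.06 and 0.06 on the control arrays, which overlap.

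**Figure D1:**
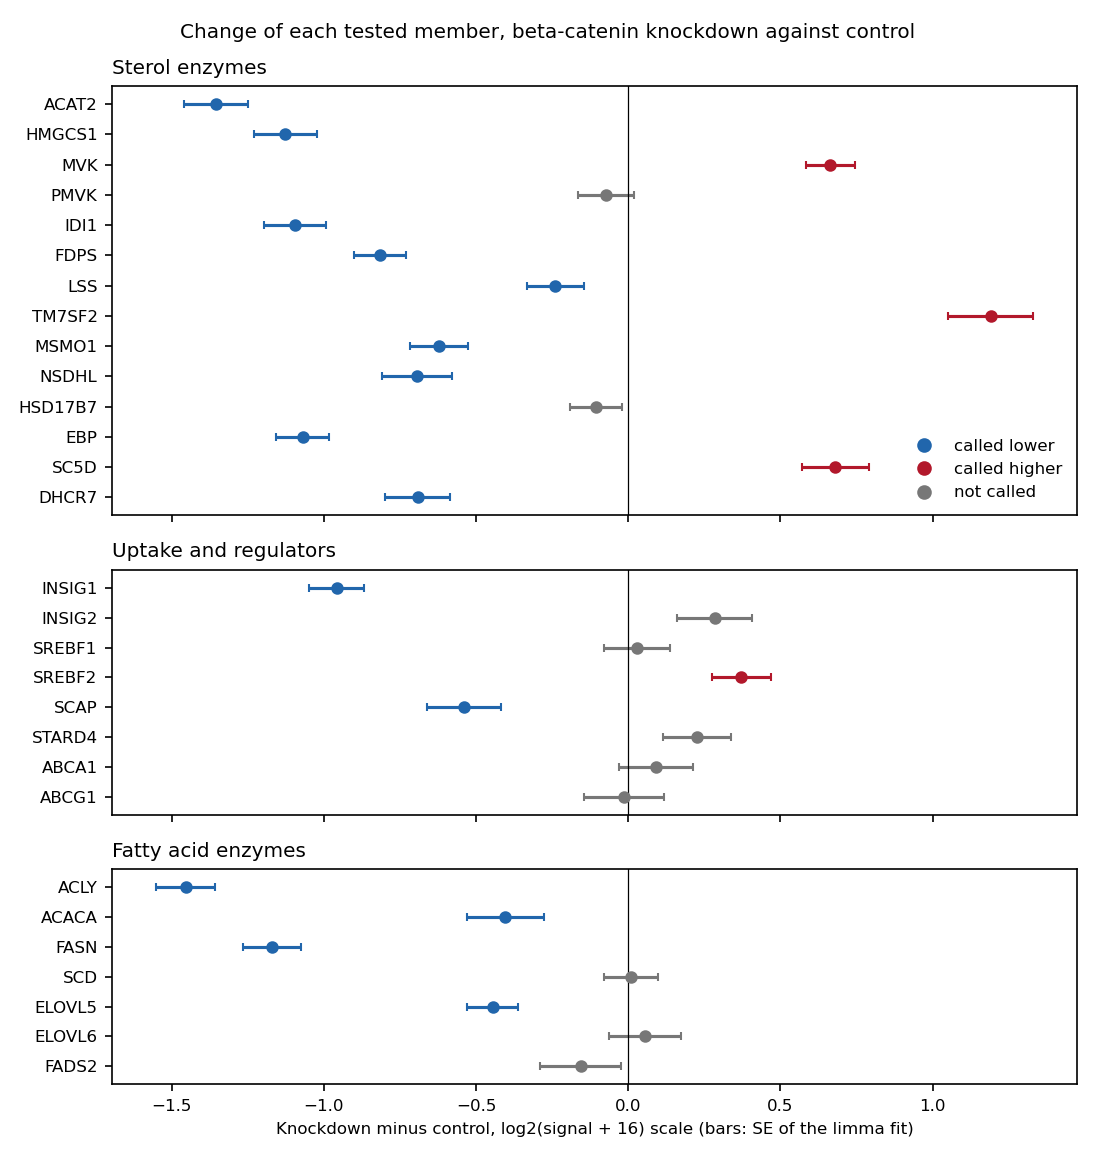
Change of each tested member on the log2(signal + 16) scale, knockdown minus control, with bars for the SE of the limma fit, in pathway order within each class. MVK, TM7SF2 and SC5D lie right of 0 among sterol enzymes that mostly lie left of it, and ACLY has the lowest value, −1.45.

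The first steps of the sterol route join acetyl-CoA units. ACAT2, the cytosolic thiolase that makes acetoacetyl-CoA, read 6.62, 6.64 and 6.51 in the knockdown arrays, against 8.11, 7.81 and 7.90 in the control arrays. The groups were well apart, and ACAT2, read by 1 probe set, fell by 1.35 (SE 0.11), or 2.56-fold (limma, adjusted p = 8.63e-12). HMGCS1, which adds a further acetyl unit to give HMG-CoA, read 7.06, 7.07 and 6.82 in the knockdown arrays, against 8.07, 8.05 and 8.21 in the control arrays. It fell by 1.13 (SE 0.10), or 2.18-fold (limma, adjusted p = 2.49e-10), and a second HMGCS1 probe set fell by 0.66. Both genes thus stood lower on every knockdown array than on any control array.

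The kinases further along the route did not share this fall. MVK, mevalonate kinase, read 9.35, 9.25 and 9.35 in the knockdown arrays, against 8.66, 8.68 and 8.62 in the control arrays. It rose by 0.66 (SE 0.08), or 1.58-fold (limma, adjusted p = 5.72e-08), and its next brightest probe set rose by 0.85. A dim MVK probe set changed by 0.04 with overlapping groups, one below the filter by −0.35, and the mean over the 4 gave 0.30 (limma, adjusted p = 0.00983). PMVK, phosphomevalonate kinase, averaged 8.50 ± 0.05 in the knockdown and 8.58 ± 0.14 in the control cultures (SD, n = 3 each). Its change of −0.07 was not called (95% interval −0.26 to 0.11; limma, adjusted p = 0.539). MVD, the decarboxylase that makes isopentenyl diphosphate, had a mean of 5.48 over the 6 arrays, just under the filter, and was not tested; it averaged 5.34 ± 0.10 in the knockdown and 5.62 ± 0.21 in the control cultures (SD, n = 3 each).

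IDI1 and FDPS, which turn isopentenyl diphosphate into farnesyl diphosphate, fell. IDI1, the isomerase, read 7.09, 7.18 and 7.12 in the knockdown arrays, against 8.39, 8.17 and 8.11 in the control arrays, a change of −1.09 (SE 0.10; limma, adjusted p = 2.99e-10). Its second probe set fell by 1.15, while a dimmer one changed by 0.33 and was not called. All 3 of these carry the _x_ mark of probes that may also bind related sequences, and averaged over its 4 probe sets IDI1 changed by −0.54. FDPS, farnesyl diphosphate synthase, read 8.66, 8.77 and 8.63 in the knockdown arrays, against 9.64, 9.49 and 9.37 in the control arrays. With 1 probe set, FDPS fell by 0.82 (SE 0.08), or 1.76-fold (limma, adjusted p = 2.80e-09), and its groups did not overlap.

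Squalene epoxidase and lanosterol synthase, which prepare squalene and close the sterol rings, showed little. All 4 probe sets of SQLE, the epoxidase, lay below the filter, and the brightest averaged 5.35 ± 0.14 in the knockdown and 5.39 ± 0.15 in the control cultures (SD, n = 3 each). LSS, the synthase, averaged 8.41 ± 0.11 in the knockdown and 8.65 ± 0.13 in the control cultures (SD, n = 3 each), a change of −0.24 (SE 0.09; limma, adjusted p = 0.0350). That call was weak. It was lost when probe sets were averaged (−0.13), without the filter, without an intensity trend, against a 1.2-fold change, and without control replicate 1 (adjusted p = 0.131), knockdown replicate 1 (0.111) or knockdown replicate 3 (0.150).

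After lanosterol the members went both ways. TM7SF2, a sterol reductase that removes the double bond left by CYP51A1, read 7.44, 7.65 and 7.32 in the knockdown arrays, against 6.54, 5.81 and 6.49 in the control arrays. It rose by 1.19 (SE 0.14), or 2.28-fold (limma, adjusted p = 3.02e-08), the largest rise among the members tested, although control replicate 2 lay well below the other controls. Without that array TM7SF2 still rose, by 0.96 (limma, adjusted p = 1.55e-08). Only 1 probe set read TM7SF2.

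The enzymes that strip methyl groups from the ring were lower or not called. MSMO1, the methylsterol oxidase, read 7.82, 7.90 and 7.79 in the knockdown arrays, against 8.50, 8.31 and 8.57 in the control arrays, a change of −0.62 (SE 0.10; limma, adjusted p = 2.99e-06). NSDHL, the dehydrogenase that follows it, read 6.02, 6.10 and 5.90 in the knockdown arrays, against 6.85, 6.50 and 6.75 in the control arrays. NSDHL fell by 0.69 (SE 0.12; limma, adjusted p = 1.00e-05), and its second probe set fell by 0.88. Neither gene's groups overlapped. HSD17B7, the ketoreductase of the same complex, averaged 8.88 ± 0.03 in the knockdown and 8.99 ± 0.13 in the control cultures (SD, n = 3 each) and was not called (−0.11, 95% interval −0.28 to 0.07; limma, adjusted p = 0.326). Its 1 probe set has the _x_ mark, so related sequences may share its signal.

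The last steps before cholesterol held falls on either side of a rise. EBP, the sterol isomerase, read 8.22, 8.38 and 8.30 in the knockdown arrays, against 9.48, 9.39 and 9.25 in the control arrays. It fell by 1.07 (SE 0.09), or 2.10-fold (limma, adjusted p = 1.81e-11), and its 2 other probe sets above the filter fell by 1.33 and 1.15. SC5D, the desaturase that acts next, went the other way. It read 7.00, 7.14 and 6.93 in the knockdown arrays, against 6.42, 6.19 and 6.43 in the control arrays, and rose by 0.68 (SE 0.11), or 1.60-fold (limma, adjusted p = 7.18e-06). The only other SC5D probe set lay below the filter and changed by 0.10, so the average over both was 0.39. DHCR7, the reductase that makes cholesterol, read 6.56, 6.62 and 6.53 in the knockdown arrays, against 7.22, 7.14 and 7.43 in the control arrays. DHCR7 fell by 0.69 (SE 0.11; limma, adjusted p = 3.52e-06), and its second probe set fell by 0.72. For EBP, SC5D and DHCR7 no knockdown array overlapped a control array.

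**Figure D2:**
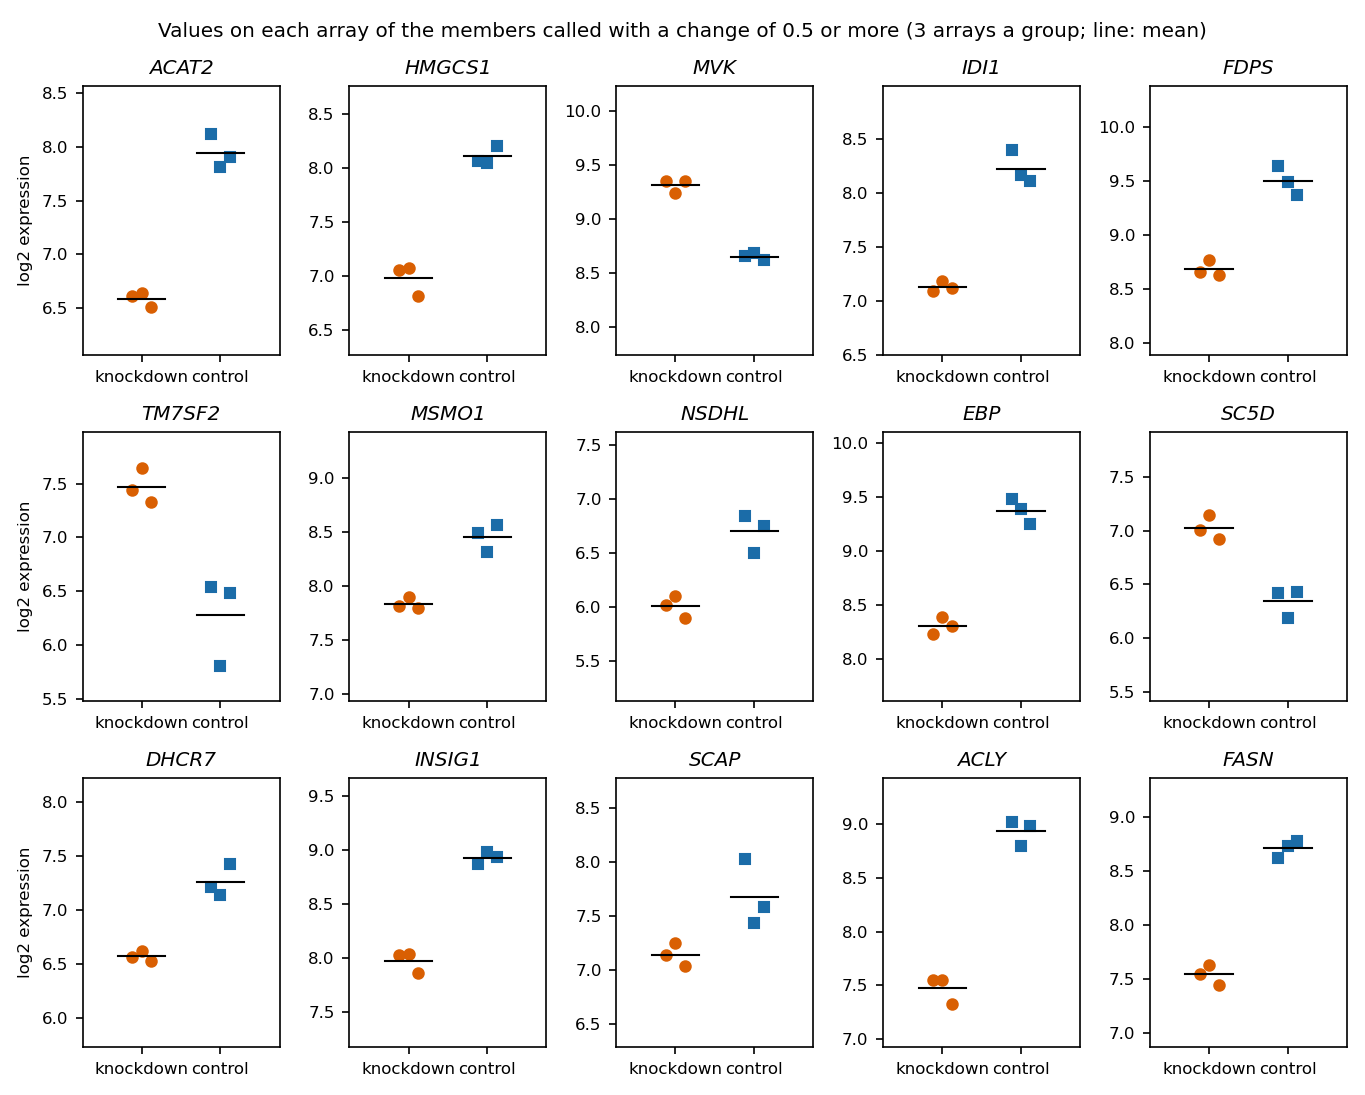
Log2 expression of the 15 members called with a change of at least 0.5, 1 panel each, with circles for the 3 knockdown arrays, squares for the 3 control arrays and a line at each mean; every panel spans the same height on the log2 scale. In each panel the groups stand apart, and only MVK, TM7SF2 and SC5D have the knockdown above the control.

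Of the genes that sense sterols, INSIG1 and SCAP fell. INSIG1, which retains SCAP in the endoplasmic reticulum and is itself an SREBP target, read 8.02, 8.04 and 7.86 in the knockdown arrays, against 8.87, 8.98 and 8.93 in the control arrays. It fell by 0.96 (SE 0.09), or 1.94-fold (limma, adjusted p = 3.92e-10), and its 2 other probe sets fell by 1.07 and 0.73. INSIG2, its relative, averaged 6.55 ± 0.19 in the knockdown and 6.26 ± 0.22 in the control cultures (SD, n = 3 each), with overlapping groups. Its change of 0.28 was not called (limma, adjusted p = 0.0594, 95% interval 0.03 to 0.54). By limma it was called higher without control replicate 3 (0.34, adjusted p = 0.0324) or knockdown replicate 3 (0.38, adjusted p = 0.0156). It was smaller and not called without control replicate 2 (0.16, adjusted p = 0.305) or knockdown replicate 2 (0.19, adjusted p = 0.295). SCAP, the escort of SREBP, read 7.14, 7.25 and 7.04 in the knockdown arrays, against 8.03, 7.43 and 7.58 in the control arrays, where control replicate 1 was the highest. Its groups did not overlap, and it fell by 0.54 (SE 0.12; limma, adjusted p = 4.63e-04), or by 0.37 without control replicate 1.

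The genes of the SREBP factors themselves did not fall on any probe set called. SREBF2, whose product drives mainly sterol genes, read 7.84, 7.90 and 7.94 in the knockdown arrays, against 7.60, 7.47 and 7.48 in the control arrays. It rose by 0.37 (SE 0.10; limma, adjusted p = 0.00225), but its other probe sets changed by 0.11 and −0.08 and were not called, and the average over all 3 was 0.13. Without knockdown replicate 1 or knockdown replicate 3 the probe set that changed by 0.11 became the brightest, and SREBF2 was not called (0.12 and 0.13; adjusted p = 0.478 and 0.389). SREBF1, whose product drives mainly fatty acid genes, read 7.05, 7.22 and 7.36 in the knockdown arrays, against 7.07, 7.15 and 7.32 in the control arrays, and the groups overlapped. Its change of 0.03 was not called (95% interval −0.20 to 0.25; limma, adjusted p = 0.859). The second SREBF1 probe set read 6.64, 6.59 and 6.55 in the knockdown arrays, against 5.89, 6.01 and 6.06 in the control arrays, and was higher by 0.60 (limma over all probe sets, adjusted p = 5.15e-04), a disagreement singled out after the values were seen.

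Sterol carriers and exporters were not called. STARD4, a soluble cholesterol carrier, changed by 0.23 (95% interval −0.0036 to 0.45; limma, adjusted p = 0.0998). ABCA1, which loads cholesterol onto lipid-poor apolipoprotein, averaged 5.87 ± 0.09 in the knockdown and 5.78 ± 0.19 in the control cultures (SD, n = 3 each), a change of 0.09 (95% interval −0.16 to 0.34). ABCG1, an exporter to mature lipoprotein particles, averaged 5.59 ± 0.21 in the knockdown and 5.61 ± 0.20 in the control cultures (SD, n = 3 each), a change of −0.01 (95% interval −0.28 to 0.26). Both exporters are targets of the sterol-sensing LXR receptors. Their adjusted p-values by limma were 0.566 and 0.942, and 3 of 4 probe sets of each lay below the filter.

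Of the fatty acid enzymes, ACLY, FASN, ELOVL5 and ACACA fell. ACLY, which splits citrate to supply cytosolic acetyl-CoA to both routes, read 7.55, 7.55 and 7.33 in the knockdown arrays, against 9.02, 8.79 and 8.98 in the control arrays. It fell by 1.45 (SE 0.10), or 2.74-fold (limma, adjusted p = 2.67e-13), the largest fall among the members tested. The 2 other ACLY probe sets fell by 1.18 and 1.47. FASN, the synthase that builds palmitate, read 7.55, 7.63 and 7.45 in the knockdown arrays, against 8.62, 8.74 and 8.78 in the control arrays. It fell by 1.17 (SE 0.09), or 2.25-fold (limma, adjusted p = 1.66e-11), with the groups apart. The other FASN probe set lay below the filter and changed by 0.02, so the mean over both was −0.58.

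ACACA, the carboxylase that makes malonyl-CoA between these steps, averaged 5.42 ± 0.08 in the knockdown and 5.82 ± 0.22 in the control cultures (SD, n = 3 each). It fell by 0.40 (SE 0.13; limma, adjusted p = 0.00910), and its second probe set fell by 0.36. Its knockdown mean lay below the filter value, so ACACA was tested through its control level, and the call was lost without control replicate 1 (−0.34, adjusted p = 0.0506).

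Elongases and desaturases, which lengthen and unsaturate the acyl chain, changed less or not evenly over their probe sets. ELOVL5, an elongase of polyunsaturated chains, read 8.56, 8.60 and 8.56 in the knockdown arrays, against 9.07, 8.96 and 9.03 in the control arrays. ELOVL5 fell by 0.45 (SE 0.08; limma, adjusted p = 4.87e-05), while its dimmer probe sets above the filter changed by −0.34 and 0.08 and were not called, and averaged over its 4 probe sets the change was −0.13 (adjusted p = 0.270). SCD, the desaturase that makes oleate, read 8.50, 8.67 and 8.50 in the knockdown arrays, against 8.52, 8.56 and 8.56 in the control arrays, and the groups overlapped. Its change of 0.01 was not called (95% interval −0.17 to 0.19; limma, adjusted p = 0.944). The second SCD probe set read 6.97, 6.96 and 6.79 in the knockdown arrays, against 7.44, 7.45 and 7.42 in the control arrays. It was lower by 0.53 and a dimmer one by 0.55 (limma over all probe sets, adjusted p = 7.85e-04 and 0.0155), again singled out after the values were seen.

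The remaining members of this class were dim. ELOVL6, an elongase of saturated chains, changed by 0.05 (95% interval −0.19 to 0.30; limma, adjusted p = 0.741). A probe set of ELOVL6 below the filter was lower by 0.56 (limma over all probe sets, adjusted p = 0.00244) and another changed by 0.25. FADS2, a desaturase of polyunsaturated chains, changed by −0.16 (95% interval −0.43 to 0.11; limma, adjusted p = 0.352), with overlapping groups.

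Above the filter, no member had probe sets called in opposite directions, but some uncalled ones did not move with the called ones. Such probe sets changed by 0.04 in MVK, 0.33 in IDI1 and 0.01 in SCD. In the fit over all probe sets, 23.2% of the 54613 were called in either direction. This share counts single probe sets, dim ones included, so it is no background for counts of members. Of 14 members with at least 2 probe sets above the filter, 9 had at least 2 called lower and 0 called higher, which were HMGCS1, IDI1, NSDHL, EBP, DHCR7, INSIG1, ACLY, ACACA and SCD. MVK had 2 called higher and 0 called lower. The matching share over all genes was not computed, so these counts describe the members only. SCD and SREBF1, not called on their brightest probe set, each had a dimmer one that was. ACAT2, FDPS, TM7SF2, MSMO1 and SCAP were called on 1 probe set each, with no other to compare.

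**Figure D3:**
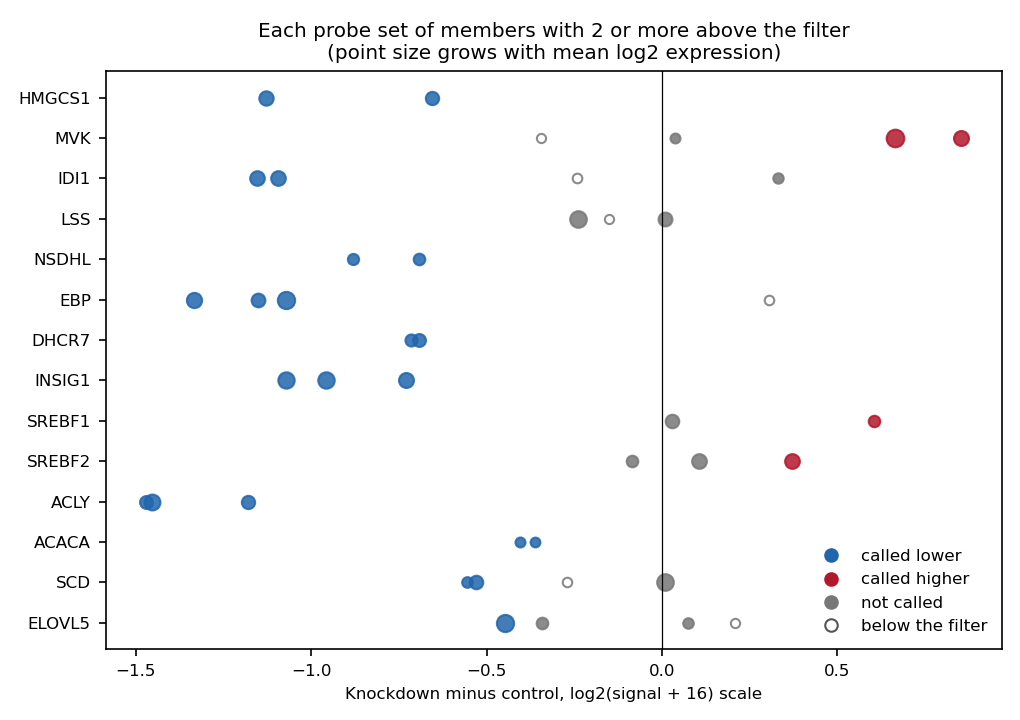
Change of every probe set, knockdown minus control on the log2(signal + 16) scale, for the 14 members with at least 2 probe sets above the filter; filled points passed the filter, open ones did not, and larger points are brighter. All filled points of EBP, INSIG1 and ACLY lie at −0.73 or below, while the brightest points of SCD and SREBF1 lie near 0 with further called points to one side.

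Around the members, 49 other lipid genes were grouped by role. Of these, 46 were measured and 43 tested, with 11 called lower and 19 higher, where 22.0% of all genes tested were lower and 25.3% higher. These shares hold for each list that follows, and with 2 to 10 genes tested a list, counts close to them are no result about the list. Those with a change of at least 0.7 are named. In sterol trafficking and storage, 1 of 6 tested was lower and 3 higher. TMEM97, an SREBP-responsive protein of the endoplasmic reticulum that binds NPC1, read 8.34, 8.20 and 8.10 in the knockdown arrays, against 10.20, 9.62 and 9.77 in the control arrays, a change of −1.65 (SE 0.10; limma, adjusted p = 8.12e-14), or −1.04 averaged over its 4 probe sets. NPC2, which hands cholesterol out of the lysosome, rose by 0.77 (SE 0.09; limma, adjusted p = 2.00e-08).

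Of the proteases that release SREBP, MBTPS2 rose by 0.94 (SE 0.10; limma, adjusted p = 6.34e-09; 0.57 averaged over probe sets), and 1 of 2 was called. Of LXR genes, 1 of 2 tested was higher. This was MYLIP, an LXR target and ubiquitin ligase for lipoprotein receptors, which read 6.95, 6.96 and 6.70 in the knockdown arrays, against 5.84, 5.20 and 5.60 in the control arrays, and rose by 1.32 (SE 0.13; limma, adjusted p = 1.51e-09). The LXR targets ABCA1 and ABCG1 were not called, as given above.

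In the side branches of mevalonate, 3 of 10 tested were lower and 5 higher, against 22.0% and 25.3% of all genes. PDSS1, a subunit of the enzyme that makes the tail of coenzyme Q, changed by −1.41 (SE 0.11; limma, adjusted p = 1.29e-11) on its brightest probe set, but by 0.64 on the other (adjusted p = 1.16e-04 with unmarked probe sets first), so its direction rests on the probe set; averaged over both it was −0.39. COQ2, which attaches that tail, fell by 0.92 (SE 0.11; limma, adjusted p = 5.57e-08), or by 0.47 averaged over both.

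Partners of the elongases were lower in 3 of 4 tested and higher in 1, with a median of −0.56. Of 9 genes of acyl and acetyl supply, 3 were lower and 4 higher. Among these SLC25A1, the mitochondrial carrier that exports the citrate used by ACLY, fell by 0.73 (SE 0.10; limma, adjusted p = 5.51e-07). Fatty acid oxidation, the breakdown of fatty acids, had 1 of 10 tested lower and 4 higher, with a median of 0.14. Over all genes tested the shares were 22.0% and 25.3%. CPT2, the inner carnitine transferase of mitochondria, rose by 0.96 (SE 0.11; limma, adjusted p = 1.36e-08), and ACADVL, the dehydrogenase of very long chains, rose by 0.71 (SE 0.09; limma, adjusted p = 2.40e-07).

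**Figure D4:**
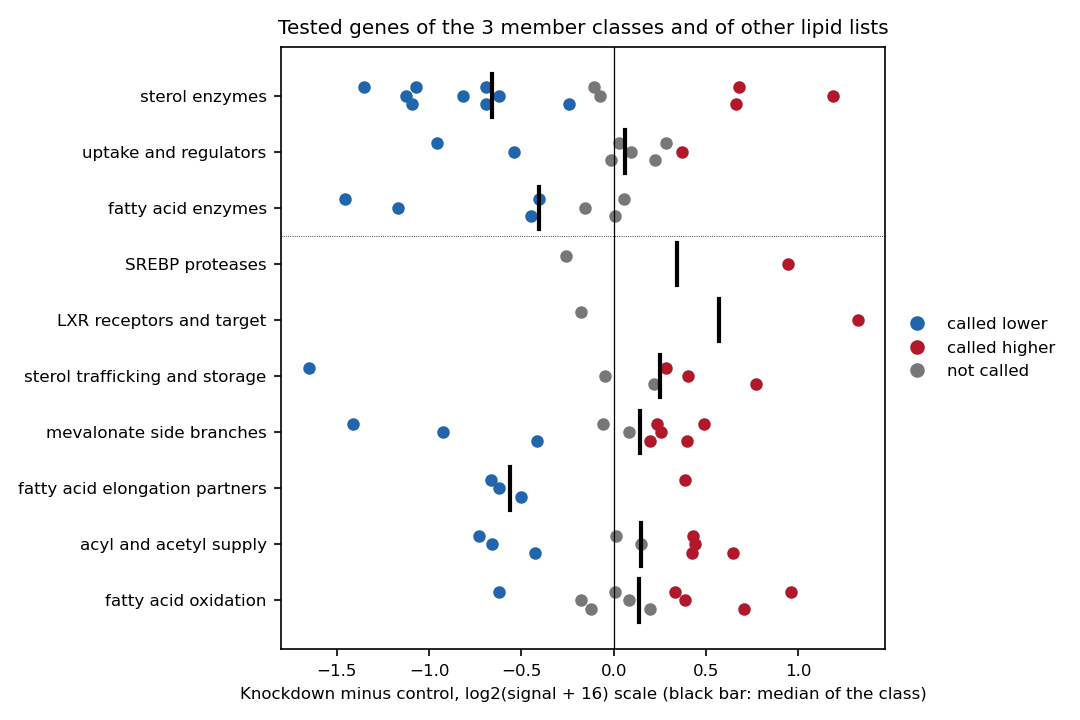
Change of each tested gene, knockdown minus control on the log2(signal + 16) scale, for the 3 member classes above the dotted line and the 7 other lipid lists under it; black bars mark class medians. The medians of sterol enzymes (−0.66), fatty acid enzymes (−0.40) and elongation partners (−0.56) lie left of 0, and the other medians lie between 0.06 and 0.57.

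Set beside the promoters, 26 of the 29 tested members could be placed, since ACAT2 and FASN, both called lower, and ABCG1 were not matched in the promoter table. The 19 with an inverted CCAAT box comprised 12 called lower and 4 called higher, and their changes had a median of −0.45. The 7 without it had 1 lower and 0 higher, with a median of 0.03. Over all genes tested, 22.0% were lower and 25.3% higher. The inverted CCAAT box was matched for 13 of 15 sterol enzymes, 6 of 9 fatty acid enzymes and 3 of 7 regulators. The split by box thus overlaps the split by class. For the GC box the medians lay the other way, with −0.13 over 24 members that hold it, 11 lower and 4 higher, and −0.57 over 2 that do not, both lower. Of the 3 tested members with either sterol form, MVK and SREBF2 were called higher and ABCA1 was not called, and the SREBF2 call was lost in 4 of the settings tried. These differences were not tested.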

How the data were processed

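RNA of MM1.S cells was measured on 3 beta-catenin knockdown and 3 control arrays, grouped by sample title. Values deposited by the authors are log2 expression per probe set; the form log2(signal + 16) was read from their floor. MAS5 and PLIER are named in the submitters' processing notes; the role of each, and the normalization between arrays, are not given in the sources used here. Of 54675 probe sets, 62 controls were left out; 41091 had 1 symbol and 1801 several by the platform annotation. A gene took its brightest probe set and was tested if its mean reached 5.49, the median of probe set means.

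Groups were compared with limma 3.58.1 (eBayes with intensity trend) under R 4.3.3; tests were two-sided and adjusted by Benjamini-Hochberg over 12939 genes, or over all non-control probe sets where said. Exact permutation of 3 against 3 arrays cannot give a p below 0.1, so none is quoted. The fit was tested on simulated data. Members, classes and lists were chosen with earlier results of these data known. Per-array values are given for members called with a change of at least 0.5; of other lipid genes, those called with at least 0.7 are named. Alternatives were a replicate block, quantile normalization, centring, other filters and probe set rules, variance models, an offset of 64, a test against a 1.2-fold change, and leaving out each array. Promoters are RefSeq's (GRCh38.p14).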

Additional observations from a re-analysis of the deposited data

How the results depend on the processing

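Of the 19 members called, 14 kept their direction and call in all settings that tested them; the other 5 were LSS, SREBF2, SCAP, ACACA and ELOVL5. Counts of members called lower or higher stayed within 1.5 times of 15 and 4 in all settings run. Scaling moved the split of all calls: 53.5% of calls were higher as deposited, 49.2% after quantile normalization and 45.5% after centring. With a test against a 1.2-fold change, regulators had 1 lower and 0 higher, fatty acid enzymes 2 lower, and 2825 of all genes were called, against 6114. Sterol enzymes had a median of −0.45 without the filter and −0.47 with an offset of 64; fatty acid enzymes had −0.81 with a filter at the 75th percentile and −0.21 with that offset; regulators had −0.26 at that percentile. These filters change which members are counted. That offset, which shrinks changes of dim genes by construction, also gave −0.44 for NSDHL, −0.21 for ACACA, 0.79 for MYLIP and −0.60 for COQ2, all still called. The same replicate numbers in both groups mark nothing that the labels state, and deviations of same-numbered arrays correlated at −0.09, −0.26 and −0.30; with the replicate block 5494 genes were called, and of the members called LSS was lost (adjusted p = 0.0909).

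Leaving out each array gave medians of 0.015 to 0.15 in regulators, with 0 to 2 called higher. Small uncalled changes turned sign: PMVK ran from −0.12 to 0.0088, SREBF1 from −0.046 to 0.11, ABCG1 from −0.14 to 0.079, SCD from −0.047 to 0.037 and ELOVL6 from −0.0081 to 0.13 over these fits. Centring gave −0.027 for SREBF1, −0.046 for SCD and −0.00035 for ELOVL6, and quantile normalization −0.0092 for ELOVL6. With the mean over probe sets ABCG1 changed by 0.036, ELOVL6 by −0.085, FADS2 by 0.025 and SCD by −0.34, which was then called. Preferring unmarked probe sets turned PDSS1 to 0.64. Dim members such as SQLE, MVD and ELOVL6 lie where signal over background limits what a change can show.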

Other observations

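MMAB, a vitamin B12 enzyme whose gene lies head to head with MVK on chromosome 12 and shares its promoter region, was looked up after the values of MVK were seen. It averaged 6.17 ± 0.11 in the knockdown and 6.53 ± 0.17 in the control cultures (SD, n = 3 each), with the groups apart. Its change was −0.35 (SE 0.12; limma, adjusted p = 0.0119), while MVK rose by 0.66. The MMAB call was lost with the mean over its 3 probe sets (−0.11), with a test against a 1.2-fold change, and without control replicate 1 (−0.26, adjusted p = 0.101) or knockdown replicate 3 (−0.30, adjusted p = 0.0511). The difference between the changes of MVK and MMAB was not tested.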
